A study of Homo sapiens with 30 samples.

Results

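The genes described here are 43 genes of the lysosome and of autophagy, out of 25680 gene symbols in the deposited tables. They were taken as a fixed list of symbols, and each symbol was represented by its transcript with the highest mean count. RNA-seq was done in OPM2 and H929, a pair of human multiple myeloma lines, to ask how their transcripts respond to dBRD9-A. That compound is a small molecule that causes degradation of BRD9, a bromodomain protein found in the non-canonical form of the BAF chromatin remodeller. The groups were OPM2 with DMSO, OPM2 with 100 nM dBRD9-A, H929 with DMSO and H929 with 100 nM dBRD9-A, each for 24 h and each with 3 libraries. DMSO is the solvent, and cells of all 12 libraries were grown in RPMI medium with fetal bovine serum. Another 18 of the 30 samples listed were not analysed here. Whether replicates were separate cultures is not stated, so the spread behind each p-value is that among libraries and may be technical.

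Lysosomes digest cargo from endocytosis and autophagy, the process that wraps cytoplasm in a double membrane: the vacuolar ATPase (V-ATPase) acidifies them, cathepsins and glycosidases cut the cargo, and heavily glycosylated membrane proteins line them. TFEB, TFE3 and MITF are related basic helix-loop-helix factors that bind E-box sequences in promoters of many lysosomal genes. Plasma cells, the cell type from which myeloma arises, make large amounts of antibody and depend on autophagy.

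The E-box letters that these factors are known for were looked up in RefSeq promoter windows of 300 bases, from 250 before to 50 after each start, because the 8 promoters below let a reader see which lysosomal genes carry them. A window was found for 33 of the 43 genes. LAMP2, LAMP3, CTSB, CTSS, HEXA, PSAP, ASAH1, ATP6V1A, ATP6V1B2 and ATP6V1H had no entry. The stretches are in build GRCh38.p14, are written 5′ to 3′ on the gene's strand, and end at or before the base upstream of the start. Capitals mark the motif, which is TCACGTGA in MCOLN1, GAA and CTSA, TCATGTGA or its reverse complement TCACATGA in TPP1, CD63 and GRN, and the shorter CATGTG or its reverse complement CACATG in CD68 and SCARB2.
MCOLN1: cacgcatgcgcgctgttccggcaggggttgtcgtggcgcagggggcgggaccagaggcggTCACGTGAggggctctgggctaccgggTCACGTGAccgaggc
GAA: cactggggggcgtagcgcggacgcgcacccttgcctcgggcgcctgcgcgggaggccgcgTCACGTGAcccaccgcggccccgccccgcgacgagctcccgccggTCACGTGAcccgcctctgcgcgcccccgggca
CTSA: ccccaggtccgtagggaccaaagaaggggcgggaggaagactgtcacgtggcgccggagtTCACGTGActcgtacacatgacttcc
TPP1: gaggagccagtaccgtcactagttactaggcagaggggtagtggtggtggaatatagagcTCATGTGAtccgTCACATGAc
CD63: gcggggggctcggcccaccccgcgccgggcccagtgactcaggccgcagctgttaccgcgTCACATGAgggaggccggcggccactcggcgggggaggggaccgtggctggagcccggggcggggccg
GRN: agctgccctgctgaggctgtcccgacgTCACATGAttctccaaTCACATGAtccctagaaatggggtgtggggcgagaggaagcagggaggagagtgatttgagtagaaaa
CD68: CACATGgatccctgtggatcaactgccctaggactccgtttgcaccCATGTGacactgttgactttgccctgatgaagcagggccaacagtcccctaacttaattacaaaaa
SCARB2: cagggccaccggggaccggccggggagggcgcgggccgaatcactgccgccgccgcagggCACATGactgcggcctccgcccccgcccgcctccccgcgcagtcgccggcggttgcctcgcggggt

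These stretches lie at chr19:7522522-7522623 (plus strand), chr17:80101444-80101580 (plus strand), chr20:45891249-45891334 (plus strand), chr11:6619423-6619503 (minus strand), chr12:55729045-55729172 (minus strand), chr17:44345052-44345162 (plus strand), chr17:7579388-7579499 (plus strand) and chr4:76213872-76213997 (minus strand). In MCOLN1, GAA, TPP1, GRN and CD68 the motif occurs at 2 places in the window. In TPP1 the copies begin 21 and 9 bases before the start. In CD68 they begin 250 and 204 bases before it.

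Both strands were searched. TCACGTGA was in 5 of the 33 windows (ATP6V0D1, CTSA, GAA, LAMP1 and MCOLN1), or 15.2%, against 1.18% of the 27305 symbols with a window. TCATGTGA was in 4 (CD63, GRN, PPT1 and TPP1), or 12.1%, against 1.24%. The shorter CACGTG, which TCACGTGA contains, was in 9 (27.3% against 8.77%), and CATGTG, which TCATGTGA contains, was in 7 (21.2% against 13.4%). These matches describe letters in a window and show neither binding nor regulation.

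OPM2 dBRD9-A replicate 2 held 24524193 counts, and the other libraries held 42895389 to 76600945. Replicate 2 also stood apart in composition. Over 9365 genes, its log2 difference from the mean of its mates had an SD of 0.792, against 0.108 to 0.240 for libraries of the other 3 groups. Over the 40 genes of the list with at least 1 CPM (CPM, the library-size-normalised count, scaled by edgeR TMM factors), this library was lower than its mates for 26 and higher for 14. Its deviation ran from -1.91 for CTSD, whose transcript is 64.0% GC, to 1.55 for TPP1, and the Spearman correlation with GC content across these 40 genes was -0.745. Genes are not independent replicates, and the points share this library. OPM2 values are therefore given with and without replicate 2.

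**Figure D1:**
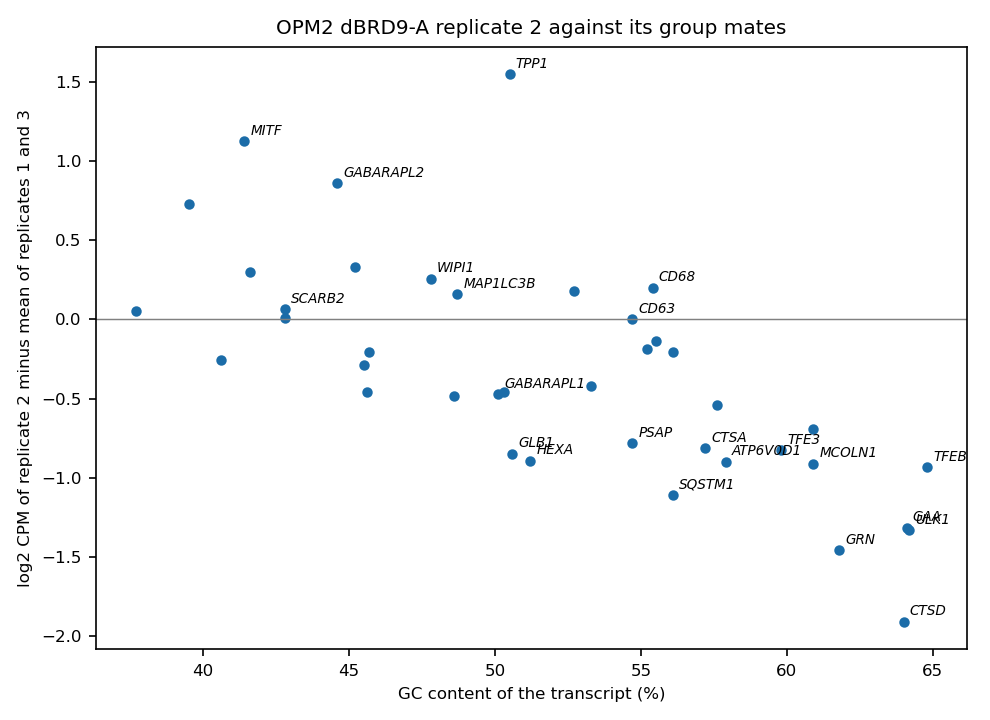
Deviation of OPM2 dBRD9-A replicate 2 from the mean of replicates 1 and 3, in log2 CPM (y axis), against GC content of the transcript in percent (x axis), with 1 point per gene for the 40 genes at or above 1 CPM. Points slope downward, from MITF, GABARAPL2 and TPP1 above 0 to CTSD at -1.91.

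All 11 plasma cell markers exceeded 1 CPM in at least 1 library, and their sum was 12216 to 17387 CPM in the DMSO libraries and 7074 to 10920 CPM with dBRD9-A. IGJ, the antibody joining chain, made up most of the difference, at 7146 ± 810.2 and 2436 ± 234 CPM in OPM2 and 9643 ± 386 and 4390.4 ± 495 CPM in H929 (SD, n = 3). Of the 11 markers, edgeR called 3 lower and none higher in each line (27.3%, against 7.34% and 5.67% of all genes called lower). They were IGJ and SLAMF7 in both lines, MZB1 in OPM2 and IRF4 in H929. The part of this difference in the results was not tested. The BRD9 transcript was at 89.7 ± 4.02 CPM in OPM2 with DMSO and 76.3 ± 8.04 with dBRD9-A (SD, n = 3; edgeR adjusted p = 0.241), and at 87.7 ± 13.5 and 63.6 ± 6.80 in H929 (edgeR adjusted p = 0.0391). The compound acts on the protein, so its transcript does not check the treatment.

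In OPM2, dBRD9-A raised 8 of the 43 genes and lowered none (edgeR quasi-likelihood test, Benjamini-Hochberg adjusted p under 0.05 over all 16408 genes tested). They were the membrane proteins CD68, CD63 and SCARB2, the protease TPP1, the sialidase NEU1 and the autophagy genes MAP1LC3B, GABARAPL1 and WIPI1. That share, 18.6%, is close to the 17.4% of all genes tested that were called, of which 10.1% were higher and 7.34% lower. At an unadjusted p under 0.05, 1 of the 43 was lower, none by DESeq2 and 1 by limma-voom. Shares of all genes are not given for these rules. Counts by them, here and below, only show how calls moved. Of the 43, 15 had every dBRD9-A library above every DMSO library and 2 had every one below (34.9% and 4.65%, against 18.8% and 18.9% of all genes). The median log2 fold change was 0.12, against 0.03 over all genes tested.

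Without OPM2 dBRD9-A replicate 2 the OPM2 count was 21, with 20 higher and CTSC lower. That is 48.8% of the 43, against 31.7% of all genes (16.1% higher and 15.6% lower), and the median was 0.29 against 0.00. Of the 8 genes above, NEU1 was not among the 21. The OPM2 count was 5 without OPM2 DMSO replicate 2 and 5 without OPM2 DMSO replicate 3.

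In H929, dBRD9-A raised 7 of the 43 genes and lowered none: CD68, CD63, CTSS, CTSZ, ATP6V1H, MAP1LC3B and ULK1. This is 16.3%, against 13.0% of all genes tested (7.33% higher and 5.67% lower). No gene of the list was lower at an unadjusted edgeR p under 0.05 or by DESeq2, and 1 was by limma-voom. The H929 groups did not overlap for 14 genes in the higher direction and 3 in the lower (32.6% and 6.98%, against 22.0% and 23.6% of all genes). The median log2 fold change was 0.16, against 0.00 over all genes. The count was 3 without H929 DMSO replicate 2, without H929 DMSO replicate 3 or without H929 dBRD9-A replicate 2, and 4 without H929 dBRD9-A replicate 1 or 3.

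The H929 count also moved with OPM2 dBRD9-A replicate 2, because each gene has 1 spread over all 4 groups. Without that library it was 18, with 17 higher and MITF lower, or 41.9% of the list against 35.7% of all genes (19.2% higher and 16.5% lower). Across the lines, 3 of the 43 genes were called higher in both (CD68, CD63 and MAP1LC3B), or 6.98%, against 3.77% of all genes, and none was lower in both, against 3.19%. Without replicate 2 this was 12, or 27.9% against 9.69%, with none lower in both against 10.4%, and the added genes were TPP1, HEXA, MAN2B1, PSAP, GRN, ATP6V1H, TFE3, GABARAPL1 and ULK1. The lines have separate DMSO libraries, but the tests share the spread.

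**Figure D2:**
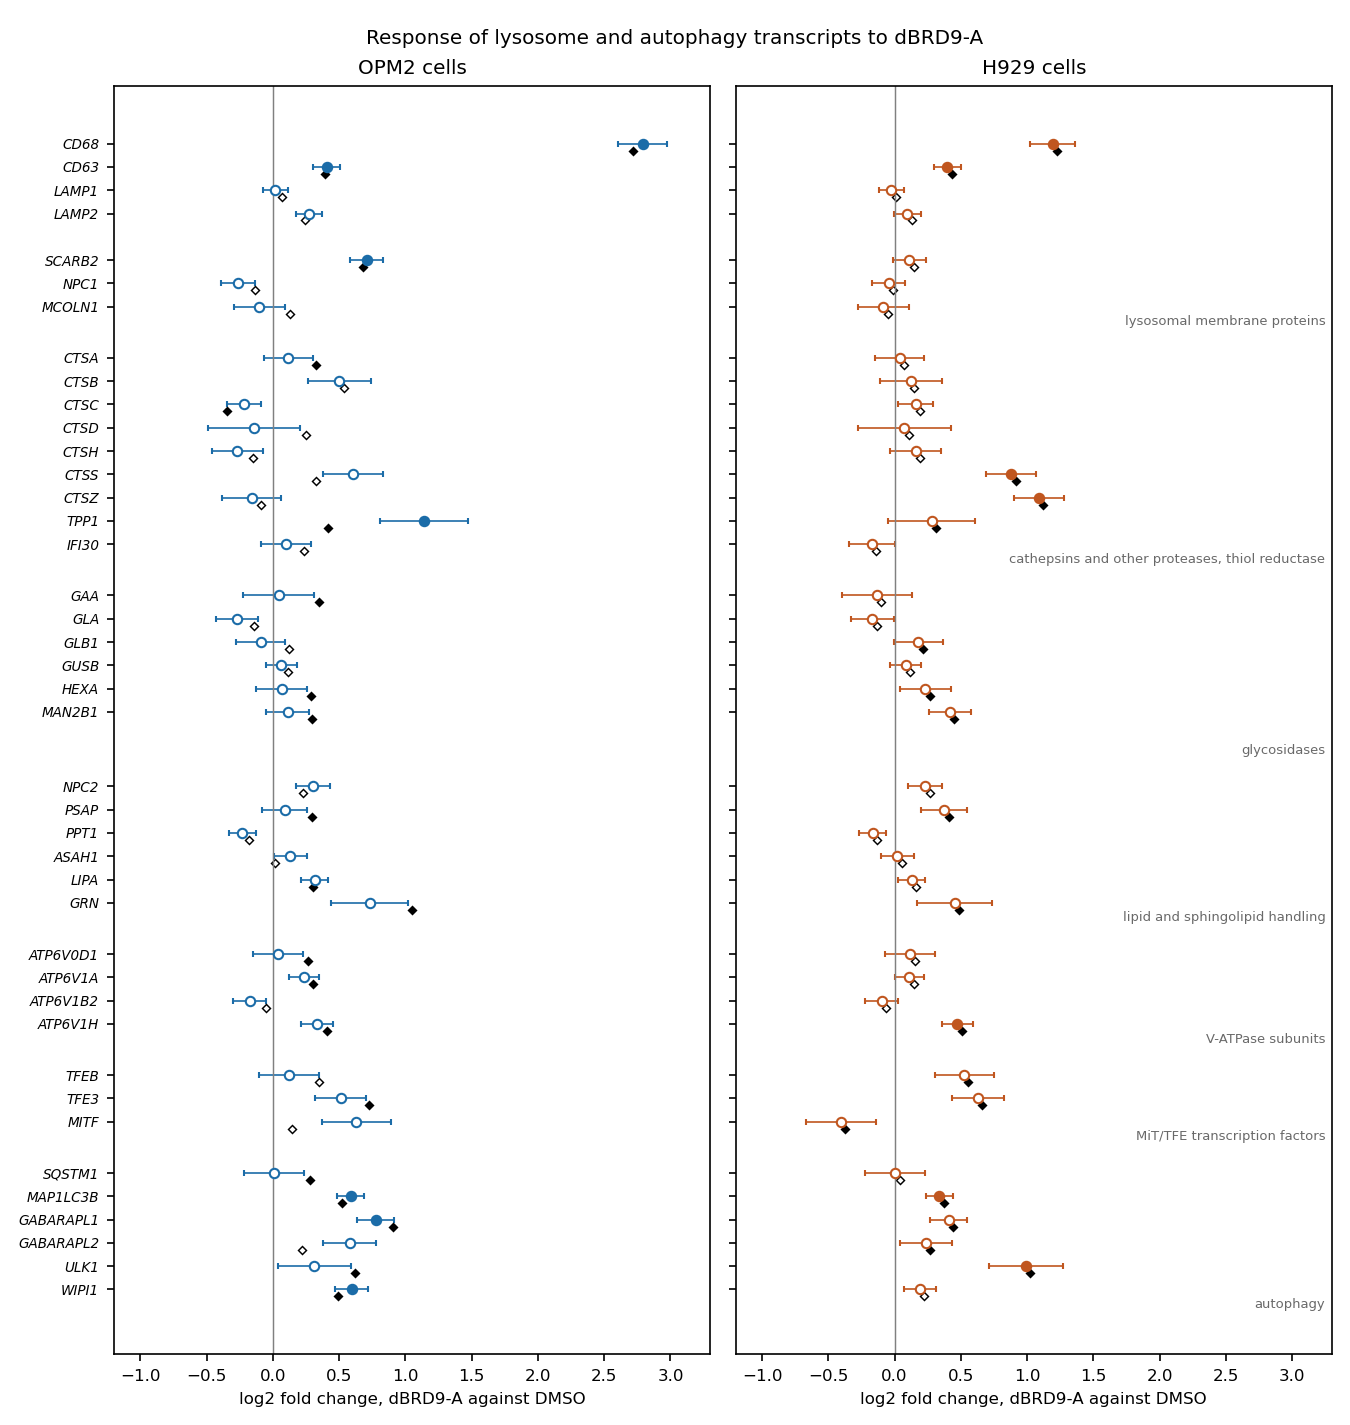
Log2 fold change of each gene with dBRD9-A against DMSO in OPM2 (left) and H929 (right), with circles for the fit to all libraries, bars of 1 SE and diamonds for the fit without OPM2 dBRD9-A replicate 2. Filled symbols had an edgeR adjusted p under 0.05, CD68 lies farthest to the right in both lines (2.79 and 1.19), and LAMP3 and NEU1 are not drawn.

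Summed over the 43 genes, the level was 2792 ± 120.1 CPM in OPM2 with DMSO and 3485 ± 186 CPM with dBRD9-A (SD, n = 3). In H929 the sums were 4179 ± 251 and 4817 ± 382 CPM. The OPM2 groups did not overlap (2654 to 2873 against 3336 to 3694 CPM), and the H929 groups did not either (3908 to 4404 against 4444 to 5207 CPM). A few abundant genes weigh on these sums. In OPM2 the largest gains in mean CPM were of SCARB2 (509 ± 63.7 to 832 ± 70.9) and TPP1 (91.7 ± 3.05 to 203 ± 137, with replicate 2 at 361). In H929 they were of CD68 (125 ± 16.2 to 286 ± 18.6) and PSAP (347 ± 8.60 to 450 ± 31.1). No test was run on these sums, and in bulk RNA a change in the kinds of cells present and a change in RNA per cell cannot be told apart.

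Among the 8 lysosomal membrane proteins, 3 rose in OPM2 and 2 in H929. These are 37.5% and 25.0% of the 8, against 10.1% and 7.33% of all genes tested that were called higher. CD68, a heavily glycosylated lysosomal protein of the LAMP family that is used as a macrophage marker, was at 5.88, 3.604 and 4.97 CPM in the OPM2 DMSO libraries and at 36.1, 36.3 and 27.6 CPM with dBRD9-A. In H929 it was at 117, 144 and 114 CPM and then at 266, 288 and 303 CPM. Within each line every dBRD9-A library was above every DMSO library, and the highest OPM2 library was below the lowest H929 library. On the log2 scale CD68 rose by 2.79 ± 0.19 (SE; edgeR adjusted p = 1.02e-05) in OPM2 and by 1.19 ± 0.17 (edgeR adjusted p = 0.00135) in H929. Without OPM2 dBRD9-A replicate 2 they were 2.72 and 1.23, and CD68 was called in both lines under all 24 alternatives run for each. An annotated processed transcript on the same strand, AC016876.2, shares 1789 bases with the exons of CD68. It has no entry of its own in the deposited data, so some reads counted for CD68 may belong to it.

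Markers of monocytes and macrophages were low in all libraries, and in H929 their sum rose with dBRD9-A mainly through CSF1R. Over 20 such markers it was 1.19 to 1.84 CPM in OPM2 with DMSO and 1.30 to 2.12 with dBRD9-A, and in H929 3.596 to 7.55 and 8.17 to 16.4 CPM. AIF1, C1QC and FCN1 were at 0 in all 12 libraries, and CD14, LYZ and ITGAM did not exceed 0.185 CPM in any H929 library. Of the 3 that exceeded 1 CPM in any library (CSF1R, S100A9 and FCER1G), CSF1R, a growth factor receptor, passed in H929, at 2.45 ± 1.33 and 7.76 ± 2.64 CPM (edgeR adjusted p = 0.0456). S100A9 was at 2.12 ± 0.622 and 3.26 ± 1.38 CPM in H929 and was not called (edgeR adjusted p = 0.358). The other markers stayed under 1 CPM in H929, with means higher for some and lower for others. T and NK cell markers also summed higher with dBRD9-A in H929, at 27.1 to 30.2 and then 39.6 to 41.6 CPM. CD3E made up most of that sum, at 24.1 ± 1.21 and 37.7 ± 1.49 CPM (SD, n = 3), and was not called (edgeR adjusted p = 0.12). In H929 edgeR called GNLY lower (adjusted p = 0.0312) and CD2, at most 0.421 CPM in any library, higher (adjusted p = 0.0367). CD2 was at most 0.0903 CPM in any DMSO library and could pass the low-count filter only through dBRD9-A libraries. Its call therefore cannot be read as a result. Stromal markers stayed at or below 2.52 CPM, and among them the collagen gene COL1A1 rose in both lines (log2 2.09 and 3.03; edgeR adjusted p = 0.0253 and 0.00156). The part of other cells in the CD68 difference was not tested.

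CD63, a tetraspanin of late endosomes and lysosomes, was at 205, 193 and 191 CPM in OPM2 with DMSO and at 276, 260.2 and 245 CPM with dBRD9-A. In H929 it was at 177, 156 and 152 CPM with DMSO and 204, 230.2 and 206 CPM with dBRD9-A. The groups were close but did not overlap in either line. CD63 rose by 0.41 ± 0.10 in OPM2 (log2, SE; edgeR adjusted p = 0.0174) and by 0.40 ± 0.10 in H929 (edgeR adjusted p = 0.0238). The OPM2 call was lost without OPM2 DMSO replicate 2 (edgeR adjusted p = 0.0758), DMSO replicate 3 (0.0765) or dBRD9-A replicate 1 (0.0594), and with OPM2 fitted alone (0.0754). The H929 call was lost without H929 DMSO replicate 2 (0.0861), DMSO replicate 3 (0.0768) or dBRD9-A replicate 2 (0.0570).

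SCARB2, the receptor that carries glucocerebrosidase to lysosomes, was at 522, 440.0 and 566 CPM in OPM2 with DMSO and at 889, 856 and 753 CPM with dBRD9-A. In H929 it was at 197, 216 and 218 CPM with DMSO and 248, 201 and 232 CPM with dBRD9-A. The OPM2 groups stood well apart and the H929 groups overlapped. SCARB2 had log2 fold changes of 0.71 ± 0.13 (SE; edgeR adjusted p = 0.00315) and 0.11 ± 0.12 (edgeR adjusted p = 0.621). The difference between the lines, H929 minus OPM2, was -0.60 ± 0.18 and did not pass (edgeR adjusted p = 0.237).

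The classical lysosome markers LAMP1 and LAMP2, which coat the inner face of the membrane, did not pass in edgeR in either line, while DESeq2 and limma-voom called LAMP2 higher in OPM2. LAMP1 had log2 fold changes of 0.02 in OPM2 and -0.02 in H929. LAMP2 was at 87.0, 85.7 and 99.3 CPM in OPM2 with DMSO and at 109.9, 112 and 107 CPM with dBRD9-A, so its groups did not overlap, but its log2 fold change of 0.27 had an edgeR adjusted p of 0.0815. NPC1, the cholesterol exporter, had -0.26 and -0.04, and MCOLN1, a calcium channel, -0.10 and -0.09, and neither passed. The exons of NPC1 overlap those of RMC1 on the other strand, and whether the counting used strand is not stated.

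Of the 9 cathepsins and other proteases with the thiol reductase IFI30, TPP1 was called in OPM2, and CTSS and CTSZ were called in H929. These are 11.1% and 22.2% of the 9, against 17.4% and 13.0% of all genes tested. CTSS, a cysteine protease that trims the invariant chain of MHC class II, was at 28.9, 36.7 and 31.3 CPM in H929 with DMSO and at 59.5, 49.6 and 68.8 CPM with dBRD9-A. In OPM2 it was at 1.12, 0.973 and 0.999 CPM with DMSO and 1.27, 2.32 and 1.33 CPM with dBRD9-A. Both pairs of groups were apart, and every OPM2 library was far below every H929 library. The H929 log2 fold change was 0.88 ± 0.19 (SE; edgeR adjusted p = 0.0114), and the OPM2 value of 0.60 ± 0.23 did not pass (edgeR adjusted p = 0.0868).

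CTSZ, a carboxypeptidase also called cathepsin X, was at 3.29, 3.45 and 4.21 CPM in H929 with DMSO and at 8.21, 8.50 and 6.63 CPM with dBRD9-A. In OPM2 it stayed under 1 CPM, at 0.581, 0.822 and 0.857 CPM with DMSO and 0.725, 0.547 and 0.709 CPM with dBRD9-A. The H929 groups did not overlap and the OPM2 groups did. The H929 log2 fold change was 1.09 ± 0.19 (SE; edgeR adjusted p = 0.00352), against -0.16 ± 0.22 in OPM2 (edgeR adjusted p = 0.654). The difference of 1.25 ± 0.29 did not pass (edgeR adjusted p = 0.109), and it was 1.21 with an edgeR adjusted p of 0.0267 without OPM2 dBRD9-A replicate 2. CTSS and CTSZ are also expressed in macrophages, whose marker sum rose in H929 mainly through CSF1R, as given above. The part of other cells was not tested.

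TPP1, a tripeptidyl peptidase, was at 93.4, 88.1 and 93.4 CPM in OPM2 with DMSO and at 124, 361 and 122 CPM with dBRD9-A. Replicate 2 was farther above its mates than for any other of the 40 genes at or above 1 CPM, and the other dBRD9-A libraries were still above all DMSO libraries. The log2 fold change was 1.14 ± 0.33 (SE; edgeR adjusted p = 0.0339), and without replicate 2 it was 0.42 ± 0.10 (edgeR adjusted p = 0.00438). The call was lost without any 1 of the 3 OPM2 DMSO libraries (edgeR adjusted p = 0.0952, 0.111 and 0.0956) and, by a small margin, without any H929 library other than dBRD9-A replicate 2 (0.0504 to 0.0530). It was also lost with OPM2 fitted alone (0.165). In H929, TPP1 was at 81.1, 95.8 and 91.1 CPM with DMSO and 113, 95.1 and 117 CPM with dBRD9-A, the groups overlapped, and the log2 fold change of 0.28 did not pass (edgeR adjusted p = 0.641). TPP1 shares 665 exon bases with AC091564.7 on the same strand, which has no entry of its own in the deposited data.

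The other cathepsins did not pass in edgeR with all libraries, while limma-voom called CTSA and CTSB higher and CTSC lower in OPM2. CTSB, an abundant cysteine protease, had log2 fold changes of 0.50 in OPM2 and 0.12 in H929. CTSD, the main aspartic protease, was at 109, 28.4 and 106 CPM in the OPM2 dBRD9-A libraries, against 98.0, 81.2 and 90.2 CPM with DMSO, so replicate 2 alone was low. CTSA, which protects other hydrolases, had 0.12 in OPM2 and 0.33 without replicate 2, where it was called (edgeR adjusted p = 0.0249). CTSC, which activates granule proteases, was the single gene called lower in OPM2 in that fit, with -0.35 (edgeR adjusted p = 0.0249). CTSA shares exon bases with NEURL2 and PLTP on the opposite strand, so some of its reads may belong to them. CTSD shares 1166 exon bases with AC068580.4 on the same strand, which has no entry of its own in the deposited data.

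**Figure D3:**
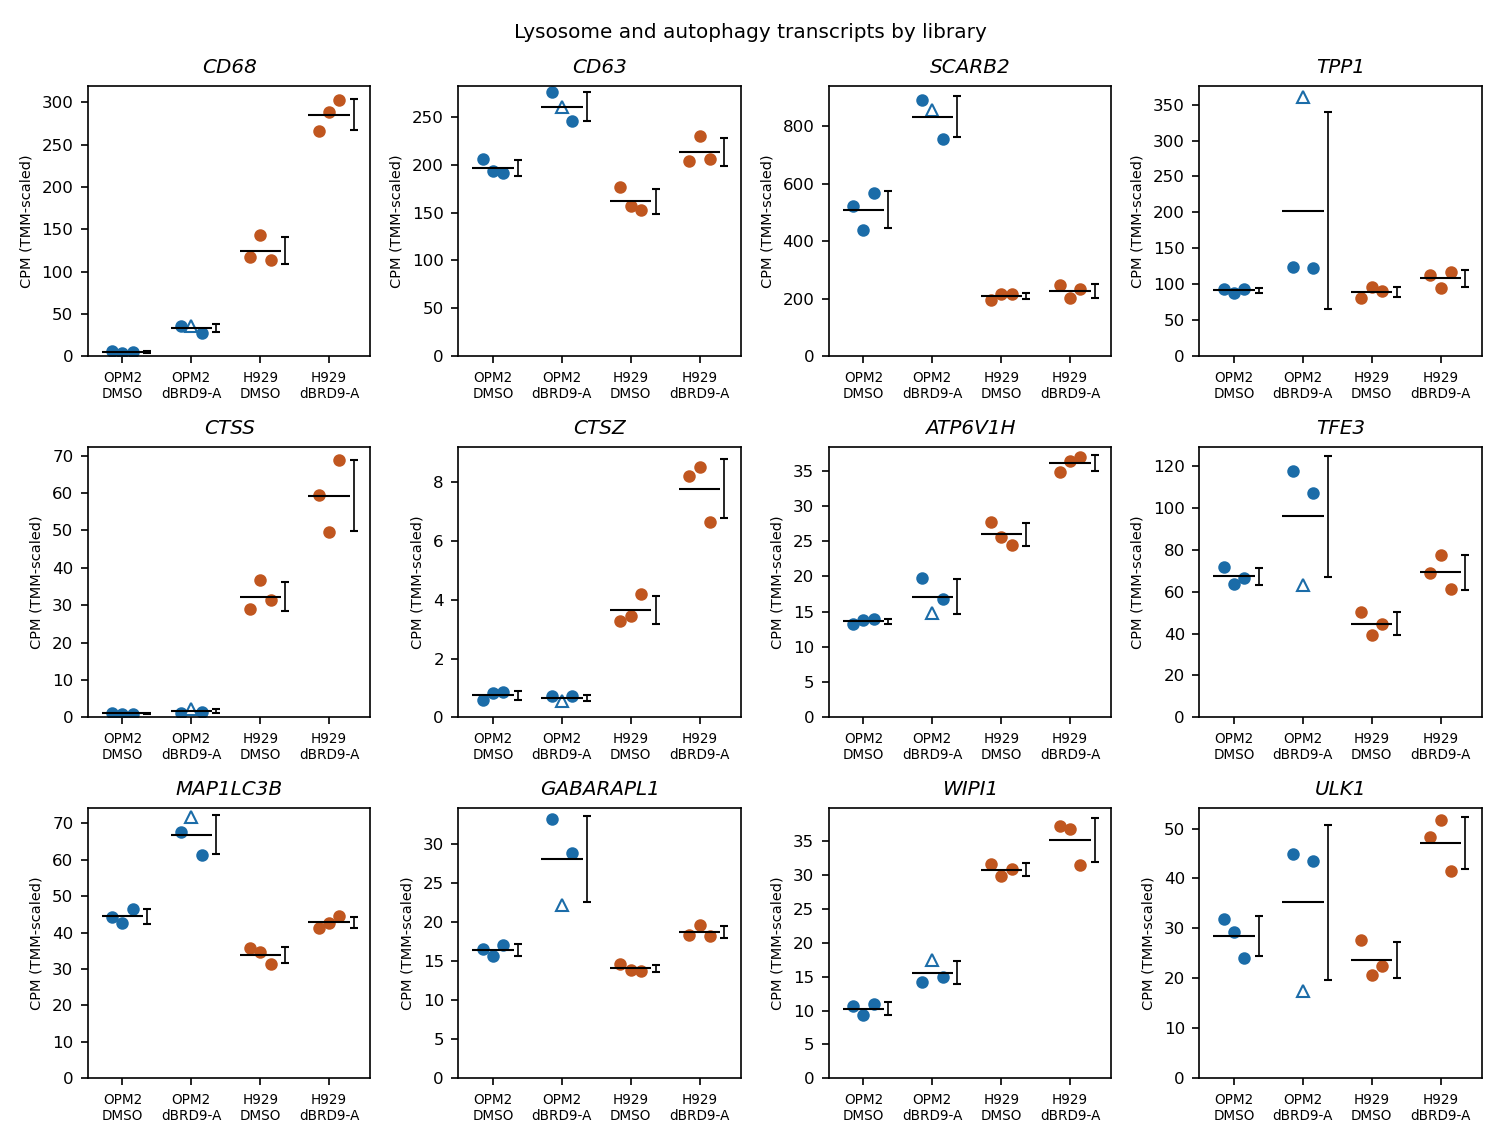
CPM scaled by TMM factors (y axis, from 0) of 12 genes in each library, grouped by line and treatment on the x axis, with horizontal lines for means and bars for 1 SD (n = 3). Open triangles are OPM2 dBRD9-A replicate 2, which reached 361 CPM for TPP1 and fell to 17.4 CPM for ULK1, and CD68 groups were apart in both lines.

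Of the 7 glycosidases, which remove sugars from glycoproteins, glycogen and glycolipids, 6 had interpretable levels. GAA, GLA, GLB1, GUSB, HEXA and MAN2B1 had log2 fold changes of -0.27 (GLA) to 0.11 (MAN2B1) in OPM2 and of -0.17 (GLA) to 0.42 (MAN2B1) in H929. None of the 6 was called by edgeR with all libraries in either line, against 17.4% of all genes tested in OPM2 and 13.0% in H929. Without OPM2 dBRD9-A replicate 2, GAA, HEXA and MAN2B1 were called higher in OPM2, and GLB1, HEXA and MAN2B1 in H929. That is 42.9% of the 7 glycosidases in each line, against 31.7% and 35.7% of all genes. MAN2B1, the acid alpha-mannosidase, was at 60.3, 58.1 and 58.1 CPM in H929 with DMSO and at 74.6, 84.1 and 77.0 CPM with dBRD9-A. Its H929 groups were apart, and its edgeR adjusted p was 0.11, or 4.03e-04 without OPM2 dBRD9-A replicate 2. Exons of MAN2B1 and HEXA share 702 and 617 bases with AC010422.3 and AC009690.1 on the same strand. Neither of those has an entry of its own in the deposited data. At an unadjusted edgeR p under 0.05, 1 of the 7 glycosidases was higher in OPM2 (NEU1) and 1 in H929. DESeq2 called 1 higher in each line, and limma-voom 3 and 2. Without a share of all genes by the same rules, these counts only show how calls moved.

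NEU1, the lysosomal sialidase, cannot be read as a level. It is listed in 8 numbered rows of which the largest count was 51, and TUBB, a tubulin gene that all cells use, is likewise listed in 56 numbered rows with at most 95 counts. The OPM2 call for NEU1 rests on replicate 2, at 0.207, 2.15 and 0.317 CPM in the dBRD9-A libraries, against 0.157, 0.0959 and 0.156 CPM with DMSO. Its log2 fold change was 2.49 ± 0.75 (SE; edgeR adjusted p = 0.0413), and without replicate 2 it was 0.92 and not called (edgeR adjusted p = 0.0793). It was also lost without any other single library, with the exception of OPM2 dBRD9-A replicates 1 and 3 (edgeR adjusted p = 0.0569 to 0.135).

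Of the 6 genes of lipid and sphingolipid handling, none was called by edgeR with all libraries. Of all genes tested, 17.4% were called in OPM2 and 13.0% in H929. At an unadjusted p under 0.05, 3 were higher and 1 was lower in OPM2 and 1 was higher in H929. DESeq2 called 1 in OPM2, and limma-voom called 4 and 2. These counts have no share of all genes beside them and only show how calls moved. PSAP, the precursor of the saposins that present sphingolipids to hydrolases, was at 355, 347 and 338 CPM in H929 with DMSO and at 441, 484 and 423 CPM with dBRD9-A. Its H929 groups did not overlap, and its log2 fold change of 0.37 ± 0.17 (SE) had an edgeR adjusted p of 0.183, or 7.50e-04 without OPM2 dBRD9-A replicate 2. In OPM2, PSAP was 0.09 with that library and 0.29 without it (edgeR adjusted p = 0.76 and 0.015).

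GRN, progranulin, a secreted protein that is cut into granulins in the lysosome, was at 9.39, 6.74 and 7.99 CPM in OPM2 with DMSO and at 18.4, 5.94 and 15.2 CPM with dBRD9-A. Replicates 1 and 3 were above all DMSO libraries and replicate 2 was below them. In H929 it was at 90.4, 95.4 and 88.6 CPM with DMSO and 122, 136 and 117 CPM with dBRD9-A, with groups apart. The OPM2 log2 fold change was 0.73 ± 0.29 (SE; edgeR adjusted p = 0.103), or 1.05 ± 0.12 without replicate 2 (edgeR adjusted p = 2.13e-05). In H929 it was 0.45 ± 0.28 (edgeR adjusted p = 0.341), and 0.49 (edgeR adjusted p = 0.00205) once that OPM2 library was left out of the shared spread.

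LIPA, the acid lipase that frees cholesterol and fatty acids, had a log2 fold change of 0.32 in OPM2, just outside the threshold (edgeR adjusted p = 0.0508; 0.0205 without replicate 2). NPC2, which hands cholesterol to NPC1, had 0.30 and 0.23, and ASAH1, acid ceramidase, 0.13 and 0.02. PPT1, a palmitoyl thioesterase, had -0.23 in OPM2 with every dBRD9-A library below every DMSO library, and -0.17 in H929. NPC2, ASAH1 and PPT1 did not pass in edgeR in either line, while limma-voom called NPC2 higher in OPM2. The exons of PPT1 share 1189 bases with CAP1 on the opposite strand, at a mean of 335 CPM, so some of its reads may belong to CAP1.

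Of the 4 V-ATPase subunits, none was called in OPM2 and 1 in H929, against 17.4% and 13.0% of all genes tested. The gene called was ATP6V1H, a regulatory subunit of the cytosolic V1 part. It was at 27.8, 25.6 and 24.5 CPM in H929 with DMSO and at 34.8, 36.3 and 37.0 CPM with dBRD9-A, and in OPM2 at 13.2, 13.8 and 13.9 CPM with DMSO and 19.7, 14.9 and 16.8 CPM with dBRD9-A. Groups did not overlap in either line. The log2 fold changes were 0.47 ± 0.12 (SE; edgeR adjusted p = 0.023) in H929 and 0.33 ± 0.12 in OPM2 (edgeR adjusted p = 0.0758; 0.41 and 0.00447 without replicate 2). The H929 call was lost without any 1 of H929 DMSO replicates 2 and 3 (0.0885 and 0.0866) or dBRD9-A replicates 1, 2 and 3 (0.0554, 0.0528 and 0.0632), with log2 fold changes of 0.47 to 0.53.

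ATP6V1A, the catalytic subunit, and ATP6V1B2, its partner in the same ring, had opposite signs in both lines. The log2 fold changes were 0.23 and 0.11 for ATP6V1A and -0.17 and -0.10 for ATP6V1B2. ATP6V0D1, which couples the rotor to the membrane part, had 0.04 and 0.12. None of the 3 passed in edgeR with all libraries, while limma-voom called ATP6V1A and ATP6V0D1 higher in OPM2. In edgeR without OPM2 dBRD9-A replicate 2 ATP6V1A (0.30) and ATP6V0D1 (0.27) were called higher in OPM2 (edgeR adjusted p = 0.0198 and 0.0211).

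None of the 3 MiT/TFE transcription factors was called by edgeR with all libraries, against 17.4% of all genes tested in OPM2 and 13.0% in H929. At an unadjusted p under 0.05, 2 were higher in each line and none lower. DESeq2 called 1 higher in each, and limma-voom called 2 higher in each and 1 lower in H929. No share of all genes stands beside these counts, so they only show how calls moved. TFE3 was at 71.8, 63.9 and 66.7 CPM in OPM2 with DMSO and at 118, 63.2 and 107 CPM with dBRD9-A. In H929 it was at 50.3, 39.5 and 44.5 CPM with DMSO and 68.8, 77.6 and 61.3 CPM with dBRD9-A. The H929 groups were apart, and in OPM2 replicate 2 sat just below all DMSO libraries while its mates sat far above. For TFE3 the log2 changes were 0.51 ± 0.20 (SE; edgeR adjusted p = 0.0905) and 0.63 ± 0.20 (edgeR adjusted p = 0.0539). Without replicate 2 they were 0.72 and 0.66, and both were called (edgeR adjusted p = 2.48e-04 and 2.10e-04). The H929 value was also called without OPM2 dBRD9-A replicate 1 (0.0447).

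TFEB was at 8.23, 8.003 and 6.24 CPM in OPM2 with DMSO and at 9.75, 4.93 and 9.51 CPM with dBRD9-A. In H929 it was at 14.1, 11.999 and 12.9 CPM with DMSO and 17.8, 21.6 and 16.8 CPM with dBRD9-A. The H929 groups were apart, and in OPM2 replicates 1 and 3 were above all DMSO libraries and replicate 2 below them. The OPM2 log2 fold change was 0.12 ± 0.22 (SE; edgeR adjusted p = 0.745), and it turned to -0.03 and -0.01 without OPM2 dBRD9-A replicates 1 and 3 and was 0.35 without replicate 2, where it still did not pass (edgeR adjusted p = 0.0663). In H929 it was 0.53 ± 0.22 (edgeR adjusted p = 0.144), and 0.56 without OPM2 dBRD9-A replicate 2 (edgeR adjusted p = 0.00259).

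MITF, the factor best known from pigment cells, was at 11.5, 10.7 and 11.5 CPM in OPM2 with DMSO and at 14.0, 27.5 and 11.1 CPM with dBRD9-A, and in H929 at 7.27, 8.05 and 8.47 CPM with DMSO and 6.67, 5.85 and 5.45 CPM with dBRD9-A. In H929 all dBRD9-A libraries were below all DMSO libraries, and in OPM2 replicate 2 was far above the rest. The log2 fold changes were 0.63 ± 0.26 (SE) and -0.41 ± 0.26, and neither passed (edgeR adjusted p = 0.114 and 0.365). Without OPM2 dBRD9-A replicate 2, OPM2 was 0.15 and not called, and H929 was -0.37 and called (edgeR adjusted p = 0.402 and 0.0239). The OPM2 value was called without dBRD9-A replicate 3 (0.87; edgeR adjusted p = 0.0209), a fit in which replicate 2 has more weight. The difference between the lines, -1.03 ± 0.37, did not pass (edgeR adjusted p = 0.392).

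All 6 autophagy genes had positive log2 fold changes in both lines, and 3 were called higher in OPM2 and 2 in H929. Of all 16408 genes, 8591 and 8104 had positive values, and 10.1% and 7.33% were called higher. MAP1LC3B, the LC3 protein that is lipidated onto the autophagosome membrane, was at 44.3, 42.6 and 46.5 CPM in OPM2 with DMSO and at 67.5, 71.8 and 61.3 CPM with dBRD9-A. In H929 it was at 35.7, 34.6 and 31.2 CPM with DMSO and 41.3, 42.7 and 44.4 CPM with dBRD9-A. Groups were apart in both lines. For MAP1LC3B the log2 changes were 0.59 ± 0.10 (SE; edgeR adjusted p = 0.00305) and 0.34 ± 0.10 (edgeR adjusted p = 0.0493). The OPM2 call held in all 24 alternatives, and the H929 call was lost in 12 of 24. Those 12 include leaving out any 1 of OPM2 DMSO replicates 1, 2 and 3, OPM2 dBRD9-A replicate 1, H929 DMSO replicates 2 and 3 and H929 dBRD9-A replicates 1, 2 and 3, with log2 fold changes of 0.32 to 0.40 and edgeR adjusted p of 0.0649 to 0.130. MAP1LC3B has a near-identical copy, MAP1LC3B2, that could share its reads.

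GABARAPL1, a ubiquitin-like relative of LC3, was at 16.5, 15.6 and 17.1 CPM in OPM2 with DMSO and at 33.2, 22.1 and 28.7 CPM with dBRD9-A. In H929 it was at 14.6, 13.8 and 13.7 CPM with DMSO and 18.3, 19.5 and 18.2 CPM with dBRD9-A. Groups were apart in both lines, with replicate 2 the lowest of the OPM2 dBRD9-A libraries. GABARAPL1 had log2 fold changes of 0.78 ± 0.14 (SE; edgeR adjusted p = 0.00348) and 0.41 ± 0.14 (edgeR adjusted p = 0.0744; 0.00111 without OPM2 dBRD9-A replicate 2). The OPM2 call was lost with OPM2 fitted alone (edgeR adjusted p = 0.0582). GABARAPL2, another relative, had 0.58 and 0.24 and did not pass in edgeR, while DESeq2 called it in OPM2 and limma-voom in both lines. Its OPM2 dBRD9-A libraries were at 62.9, 107 and 55.0 CPM, and without replicate 2 the log2 fold change was 0.22.

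ULK1, the kinase that starts autophagosome formation, was at 27.7, 20.8 and 22.5 CPM in H929 with DMSO and at 48.2, 51.7 and 41.4 CPM with dBRD9-A. In OPM2 it was at 32.0, 29.3 and 24.1 CPM with DMSO and 44.8, 17.4 and 43.5 CPM with dBRD9-A. The H929 groups were well apart, and in OPM2 replicate 2 was below all DMSO libraries while its mates were above. The log2 fold change was 0.99 ± 0.28 (SE; edgeR adjusted p = 0.0368) in H929 and 0.31 ± 0.28 in OPM2 (edgeR adjusted p = 0.461). Without replicate 2 both were called, at 1.02 and 0.62 (edgeR adjusted p = 2.83e-05 and 0.00273). The H929 call was lost without any 1 of the OPM2 DMSO libraries (0.0530 to 0.0583), the H929 DMSO libraries (0.0578 to 0.158) or the H929 dBRD9-A libraries (0.0597 to 0.113), with log2 fold changes of 0.93 to 1.16.

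WIPI1, a phosphoinositide-binding protein of early autophagosomes, was at 10.7, 9.28 and 11.0 CPM in OPM2 with DMSO and at 14.2, 17.5 and 15.0 CPM with dBRD9-A. In H929 it was at 31.7, 29.8 and 30.8 CPM with DMSO and 37.3, 36.8 and 31.4 CPM with dBRD9-A. The OPM2 groups were apart and the H929 groups overlapped. WIPI1 had log2 fold changes of 0.59 ± 0.12 (SE; edgeR adjusted p = 0.00779) and 0.19 ± 0.12 (edgeR adjusted p = 0.35), and the OPM2 call was lost with OPM2 fitted alone (edgeR adjusted p = 0.0626). Exons of WIPI1 overlap those of ARSG on the opposite strand, at a mean of 8.97 CPM. SQSTM1, the p62 receptor that brings ubiquitinated cargo to autophagosomes, had 0.01 and 0.01, and in OPM2 was 0.28 without replicate 2, where it was called (edgeR adjusted p = 0.0446). Exons of SQSTM1 overlap those of MRNIP on the opposite strand.

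By edgeR, the response of 1 of the 43 genes differed between the lines, against 0.579% of all genes tested (0.293% with a higher and 0.286% with a lower response in H929). CD68 rose 6.92-fold in OPM2 and 2.29-fold in H929, and the difference on the log2 scale, H929 minus OPM2, was -1.60 ± 0.25 (SE; edgeR adjusted p = 0.0146). The call was lost without H929 dBRD9-A replicate 1 (-1.49; edgeR adjusted p = 0.0613) and in a fit with a block on replicate number. In absolute CPM the gain was larger in H929, since the OPM2 means were 4.82 ± 1.14 and 33.3 ± 4.93 and the H929 means 125 ± 16.2 and 286 ± 18.6 (SD, n = 3). Leaving out OPM2 dBRD9-A replicate 2 gave 2, CD68 and CTSZ, against 3.04% of all genes (1.63% higher in H929 and 1.41% lower).

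The share of these genes that differed between the lines in DMSO was close to that of all genes. By an edgeR adjusted p under 0.05 and a log2 fold change of 1 or more in size, 15 of the 43 were higher in H929 and 1, SCARB2, was lower. The share is 37.2%, against 36.3% of all genes tested (21.4% higher and 15.0% lower). The groups did not overlap for 25 genes higher and 14 lower in H929 (58.1% and 32.6%, against 41.5% and 37.2%). The median log2 fold change was 0.38, against 0.05 over all genes. All 43 genes passed the filter on low counts, but LAMP3 could pass only through H929 and so had to differ. Leaving out OPM2 dBRD9-A replicate 2 gave a count of 15 (34.9% against 37.7% of all genes, with 21.6% higher and 16.1% lower), with CTSC added and CTSD and LIPA lost. Scaled by library size alone, the median of all genes moved by -0.123.

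Of the cathepsins and IFI30, 6 of 9 were called higher in H929, beside 21.4% of all genes. CTSB was at 93.0, 87.0 and 78.7 CPM in OPM2 and at 1116, 619 and 1004 CPM in H929, and CTSS, given above, at 1.03 ± 0.0758 and 32.3 ± 3.996 CPM (SD, n = 3). IFI30, a thiol reductase that unfolds antigens in the lysosome, was at 4.29, 3.001 and 3.57 CPM in OPM2 and 88.6, 80.4 and 74.1 CPM in H929. None of these groups overlapped, although H929 replicate 2 of CTSB was well below its mates. The log2 fold changes, H929 minus OPM2, were 3.40 ± 0.26 (SE) for CTSB, 4.97 ± 0.23 for CTSS and 4.49 ± 0.20 for IFI30, and their edgeR adjusted p were 2.26e-07, 3.13e-09 and 2.42e-09. CTSZ (2.27), CTSA (2.20) and CTSD (1.02) completed the 6. CTSC had -0.997 and lay at the fold threshold, and CTSH, an aminopeptidase, had -0.72. Exons of IFI30 share 997 bases with AC007192.1 on the same strand, which has no entry of its own in the deposited data. Some reads counted for IFI30 may belong to it.

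CD68 was 26.0-fold higher in H929 than in OPM2 (log2 4.70 ± 0.20, SE; edgeR adjusted p = 1.44e-09). GRN, at the DMSO levels given above, was 11.4-fold higher (log2 3.51 ± 0.31; edgeR adjusted p = 9.91e-07). LAMP3, a LAMP of dendritic cells that is inducible in other cells, had 0 counts in all 6 OPM2 libraries and was at 0.21, 0.125 and 0.181 CPM in H929 with DMSO. Its 30 counts there make it at least 12.3-fold higher than the floor of 3 counts over the OPM2 DMSO group, a bound that covers counting error only, and it did not exceed 0.41 CPM in any library. The summed monocyte and macrophage markers were also higher in H929 than in OPM2, as given above. Of the 6 that passed the filter, edgeR called 3 higher and 2 lower in H929, beside 21.4% and 15.0% of all genes. S100A8 and S100A9, at 0 in every OPM2 DMSO library, could pass the filter only through H929. CD14, at most 0.089 CPM in H929, could pass only through OPM2. These counts therefore cannot be read as a result about the markers. FCER1G, an Fc receptor subunit, was at 0.171 ± 0.0511 CPM in H929 and 1.04 ± 0.297 CPM in OPM2 (SD, n = 3). T and NK cell markers summed to 27.1 to 30.2 CPM in H929 with DMSO against 0.454 to 0.617 in OPM2. CD3E made up most of that sum, CD3D was at 0 in every DMSO library, and the part of other cells in these differences was not tested.

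The remaining genes higher in H929 were the glycosidase GAA (2.82), which digests glycogen, SQSTM1 (2.22), WIPI1 (1.58), MCOLN1 (1.16), LIPA (1.01) and NEU1, whose rows are not a level. SCARB2 was lower, with a log2 fold change of -1.28 ± 0.13 (SE; edgeR adjusted p = 2.53e-06). LAMP1, LAMP2, CD63, MAP1LC3B, GABARAPL1 and GABARAPL2 had every H929 library below every OPM2 library, but with log2 fold changes of only -0.39 to -0.22. All 4 V-ATPase subunits were higher in H929 by 0.16 (ATP6V1A) to 0.93 (ATP6V1H) and none reached the fold threshold. At an unadjusted edgeR p under 0.05, 2 of the 4 were higher, and DESeq2 and limma-voom called none. TFE3 (-0.59), MITF (-0.50) and TFEB (0.80) did not reach the fold threshold, although 1 was higher and 1 lower at an unadjusted edgeR p under 0.05, and DESeq2 and limma-voom called none.

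Set per kilobase of transcript, so that genes can be compared, the order of levels differed between the lines. In OPM2 with DMSO the highest was CD63 at 159 ± 6.35 CPM per kilobase (SD, n = 3), then SCARB2 at 107 ± 13.4, PSAP at 102 ± 4.64 and CTSC at 82.7 ± 3.45. SCARB2 was above PSAP in OPM2 DMSO replicates 1 and 3 and below it in replicate 2. In H929 with DMSO it was CTSB at 231 ± 66.1, then CD63 at 131 ± 10.4, PSAP at 122 ± 3.04 and CTSA at 99.7 ± 6.15. CD63 was above PSAP in each H929 DMSO library, although their ranges overlapped, and no test was run. The lowest levels above 1 CPM per kilobase were CTSH at 2.00 ± 0.262 in OPM2 and at 1.21 ± 0.132 in H929.

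**Figure D4:**
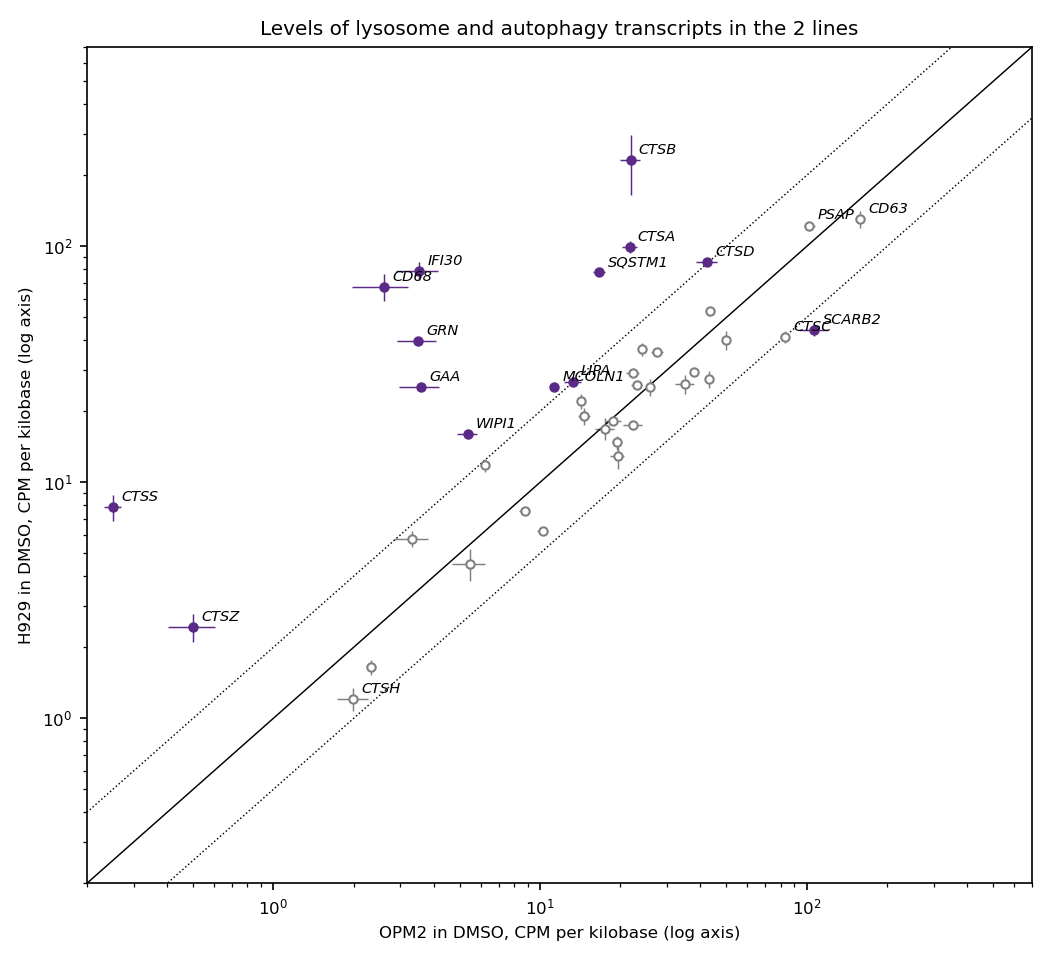
Mean CPM per kilobase in DMSO in OPM2 (x axis) and H929 (y axis), both log axes, with 1 point per gene and bars of 1 SD (n = 3). Filled points passed an edgeR adjusted p of 0.05 and an absolute log2 fold change of 1, the solid line marks equal levels and the dotted lines a log2 difference of 1, CTSS, CD68 and IFI30 lie far above the line, SCARB2 lies below it, and LAMP3 and NEU1 are not drawn.

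Other genes of the pathway were counted in 4 further lists. Of 72 other lysosomal enzymes, membrane proteins and sorting factors, 12 rose and 1 fell in OPM2, and 9 rose and 1 fell in H929. Leaving out OPM2 dBRD9-A replicate 2, these were 28 and 2, and 25 and 5, or 41.7% of the list in each line, against 31.7% and 35.7% of all genes. The shares called with all libraries, 18.1% and 13.9%, were close to the 17.4% and 13.0% of all genes. SORT1, the sorting receptor sortilin, rose in OPM2 from 27.4 ± 2.12 to 54.1 ± 9.18 CPM (SD, n = 3) and in H929 from 20.7 ± 0.884 to 45.5 ± 3.52 CPM. HGSNAT, which acetylates heparan sulfate for its breakdown, had log2 fold changes of 1.06 in OPM2 (0.69 without replicate 2) and 0.83 in H929. CTSO, a cysteine protease, had 1.27 in OPM2 (0.84 without replicate 2), and FUCA1, a fucosidase, 1.26 in H929. ABCA2, a lipid transporter, fell in OPM2, from 0.582 ± 0.158 to 0.139 ± 0.158 CPM, and in H929, where the levels were 59.9 ± 2.44 and 31.2 ± 2.46 CPM.

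Of 16 other V-ATPase subunits, 2 rose in OPM2 and 1 in H929 and none fell by edgeR. None was lower at an unadjusted edgeR p under 0.05 in OPM2 and 1 was in H929. DESeq2 called none lower, and limma-voom called 3 and 1, without shares of all genes to set beside them. With OPM2 dBRD9-A replicate 2 left out, 4 rose and 2 fell in OPM2 and 4 rose and 1 fell in H929. Those are 37.5% and 31.2% of the list, against 31.7% and 35.7% of all genes. The shares called with all libraries, 12.5% and 6.25%, were below the 17.4% and 13.0% of all genes. ATP6V1D, part of the rotating stalk, rose in both lines, with log2 fold changes of 0.47 and 0.40. ATP6V1E1, part of the fixed stalk, rose in OPM2, with 0.40, and 0.26 without replicate 2.

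Of 50 other autophagy genes, 12 rose and 2 fell in OPM2, and 9 rose and none fell in H929. At an unadjusted edgeR p under 0.05, 2 were lower in H929, against 1 by DESeq2 and 3 by limma-voom. The shares called, 28.0% in OPM2 and 18.0% in H929, stand beside 17.4% and 13.0% of all genes. When OPM2 dBRD9-A replicate 2 was left out, 18 rose and 4 fell in OPM2 and 16 rose and 4 fell in H929. In that fit the 22 called of 50 in OPM2 were a larger share than the 31.7% of all genes. The 20 called of 50 in H929 were a share nearer to the 35.7% of all genes. OPTN, a receptor that links ubiquitinated cargo to LC3, rose in OPM2, from 14.8 ± 2.32 to 50.6 ± 9.85 CPM, and in H929, where the levels were 24.4 ± 3.26 and 43.7 ± 2.65 CPM (SD, n = 3). The mitophagy receptors BNIP3L (1.34) and FUNDC1 (0.88) rose in OPM2, on the log2 scale. TP53INP1 (1.35), a p53-inducible autophagy factor, and WDFY3 (1.02), a scaffold for aggregate clearance, rose in H929. The genes that fell in OPM2 were ATG101 (-0.47), a subunit of the ULK1 complex, and ATG16L1 (-0.39), which directs LC3 lipidation. All the genes named from these 4 lists were called without replicate 2 as well.

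Of 31 genes of lysosomal nutrient sensing and the kinase complex mTORC1, 3 rose and 3 fell in OPM2, and 3 rose and none fell in H929 by edgeR (2 lower at an unadjusted p under 0.05, 2 by DESeq2 and 3 by limma-voom). After leaving out OPM2 dBRD9-A replicate 2, 6 rose and 3 fell in OPM2 and 8 rose and 2 fell in H929. The shares called with all libraries were 19.4% in OPM2 and 9.68% in H929 (all genes 17.4% and 13.0%), and without replicate 2 the 9 and 10 called of 31 were a smaller share than the 31.7% and 35.7% of all genes. SESN3, a sestrin that restrains mTORC1, rose in OPM2, from 6.13 ± 0.332 to 13.9 ± 4.17 CPM, and in H929, where the levels were 6.08 ± 1.68 and 11.9 ± 2.92 CPM (SD, n = 3). TSC1 (0.40), another restraint on mTORC1, rose in OPM2, and SESN1 (0.36) rose in H929. NPRL2 (-0.74) and DEPDC5 (-0.39), both subunits of the GATOR1 complex, fell in OPM2.

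Set beside the promoter letters printed above, edgeR with all libraries called none of the 5 genes with TCACGTGA in either treated line, with log2 fold changes of -0.10 (MCOLN1) to 0.12 (CTSA) in OPM2. Among these 5, limma-voom called CTSA, GAA and ATP6V0D1 higher in OPM2 and DESeq2 called none. In edgeR without replicate 2, GAA (0.35), CTSA (0.33) and ATP6V0D1 (0.27) were called in OPM2, and LAMP1 (0.07) and MCOLN1 (0.13) were not. Of the 4 genes with TCATGTGA, edgeR called CD63 in both lines and TPP1 in OPM2, GRN in both lines once replicate 2 was left out, and PPT1 in neither. CD68 and SCARB2, with the highest 2 OPM2 log2 fold changes among membrane proteins, had the shorter CATGTG only. Of all genes tested, edgeR called 17.4% in OPM2 and 13.0% in H929, and 31.7% and 35.7% without replicate 2. Groups of 5 and 4 genes are too small to set apart from these shares, and a link of motif and response was not tested.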

How the data were processed

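RNA was extracted on columns and made into stranded poly(A) libraries, per the labels' protocols. STAR, featureCounts and the builds hg19 and GRCh37 are named per the submitters' processing notes, without versions, and no strand setting is stated. Each deposited file lists a raw count, an FPKM and a TPM for 51780 RefSeq transcripts, per the file headers. The deposited FPKM served to derive transcript lengths, and the deposited TPM was not used.

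Of each symbol's transcripts, the one with the highest mean count was used. Counts were fitted with edgeR 4.0.16 in R 4.3.3 (quasi-likelihood test, TMM factors, filterByExpr by group, 16408 genes tested, 8 residual degrees of freedom), with 1 spread per gene over the 4 groups and Benjamini-Hochberg adjustment over all genes tested. A gene was called at an adjusted p under 0.05, and between lines in DMSO also with a log2 fold change of 1 or more in size. Levels are TMM-scaled CPM.

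Values in every library are given for called genes, for the 6 genes that differed most between lines in DMSO, and for TFEB, TFE3 and MITF. From each other pathway list, up to 3 called genes per direction and treated line were named, by size of change, with a mean log2 CPM of at least 1. Exon overlaps were read from GENCODE, on another build than the counts. Values of other genes were picked for description after they were seen. Alternatives included DESeq2 1.42.0, limma 3.58.1 (voom), other scalings and filters, trends with GC content or length, a replicate block and each library left out. The scripts were tested on simulated data. The genes and lists were chosen with earlier results of these data known.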

Additional observations from a re-analysis of the deposited data

Results flagged for a closer look

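The response of CD68 differed between the lines by a test of the difference itself. The log2 fold change in H929 minus that in OPM2 was -1.60 ± 0.25 (SE; edgeR adjusted p = 0.0146), and both lines moved upward. All 3 dBRD9-A libraries were above all 3 DMSO libraries in each line. The call for the difference was lost in 2 of 23 alternatives.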

How the results depend on the processing

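Counts of called genes depended on the treatment of OPM2 dBRD9-A replicate 2 and on the model. Shares of all genes are given above only for the fit to all libraries and the fit without that library. The other counts show how calls moved, and cannot be read as a result about these genes. In OPM2 the count of 8 became 14 with DESeq2, 26 with limma-voom and library weights, 3 with OPM2 fitted alone, 17 with the GC trend removed, 15 with that and the replicate block, 13 with the length trend removed, and 5 to 21 with 1 library left out. In H929 the count of 7 became 17 with limma-voom, 14 with H929 fitted alone, 13 with the GC trend removed, 13 with that and the replicate block, and 3 to 18 with 1 library left out. The count of 1 for the difference of responses became 2 with DESeq2, 6 with limma-voom, 0 with the replicate block (CD68 adjusted p = 0.0535) and 0 to 2 with 1 library left out. For the lines in DMSO it was 13 to 16 against 16. The GC-corrected counts moved in the direction of those without replicate 2.

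Over 28 values of single genes and 663 alternative values, 573 kept direction and side of the threshold, 61 lost a call, 27 gained one and 2 changed sign. Those 2 were TFEB in OPM2, at -0.034 without OPM2 dBRD9-A replicate 1 and -0.010 without replicate 3, in a range of -0.034 to 0.351 with 1 library left out. CD68 in both lines, SCARB2 and MAP1LC3B in OPM2, CTSS and CTSZ in H929, and CTSS, CD68, IFI30, GRN and CTSB between lines kept their calls in all alternatives run. LAMP3, at 0 in every OPM2 library, did too, but had to differ. The cause of the other changes was not tested. Replicate numbers are shared between groups, and no label says whether they pair libraries. Deviations of same-numbered libraries from their group means had correlations of -0.48 to 0.296. These values cannot decide on pairing, because single libraries such as OPM2 dBRD9-A replicate 2 deviated strongly on their own. With the replicate block the counts were 6 in OPM2, 6 in H929, 0 for the difference and 16 between lines. It ended the calls of CD68 for the difference, TPP1 (adjusted p = 0.0672) and NEU1 (0.0775) in OPM2 and MAP1LC3B (0.0933) in H929. Genes near 1 CPM or below, such as CTSZ in OPM2, are limited by their counts.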

Other observations

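LAMP2 is listed as 3 transcripts that differ in their last exon, and rows of a gene share reads. The count of the transcript for the A form divided by that for the B form was 0.488 to 0.506 in OPM2 with DMSO, 0.488 to 0.491 in OPM2 with dBRD9-A, 0.562 to 0.600 in H929 with DMSO and 0.596 to 0.638 in H929 with dBRD9-A. The ratio was higher in every H929 library than in every OPM2 library. The H929 groups overlapped. No test was run on these ratios.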
